A study of Mus musculus with 2 samples.

Results

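The levels of 10 genes for the sensing of nucleic acids in the cytosol were examined in single microglia after systemic inflammation, in mice with and without PARK7/DJ-1. Microglia are the resident immune cells of the brain. The genes were listed by name for their known role, with earlier results of these data known, and all 10 were present among the 19537 genes of both count matrices. They are Ddx58, Ifih1, Dhx58 and Mavs of the RNA branch, Mb21d1, Ifi204, Aim2 and Tmem173 of the DNA branch, Zbp1, and the kinase Tbk1. The current symbols of Ddx58, Tmem173 and Mb21d1 are Rigi, Sting1 and Cgas.

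Both groups had received lipopolysaccharide (LPS), a bacterial membrane component, by intraperitoneal injection at 4 µg per g of body weight 24 h before isolation. The mice were 3 to 4 months old. KO LPS came from PARK7/DJ-1 knock-out mice of a gene-trap line backcrossed to C57BL/6NCrl and WT LPS from wildtype littermates. Sorted CD11b+CD45int cells of 2 mice, 1 female and 1 male, were pooled into 1 Drop-seq library per genotype. KO microglia and wildtype microglia stand for these libraries below. Genotype and library cannot be told apart, no untreated library was used here, and no test between the genotypes was possible. Every interval below is an exact 95% interval that covers counting error only.

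Cytosolic sensors report RNA or DNA that is out of place, whether from a virus, a damaged nucleus or a leaking mitochondrion. RIG-I and MDA5 pass RNA signals to MAVS on mitochondria, cGAS makes a cyclic dinucleotide that activates STING, and both routes meet at TBK1, which phosphorylates IRF3 and drives type I interferon. Several sensor genes are themselves induced by interferon, so that the pathway feeds forward on its own parts. Microglia carry these sensors in the brain.

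Cells were barcodes with at least 500 unique molecular identifiers (UMIs, each marking 1 captured transcript molecule) and at least 100 genes. This gave 320 cells with 381305 UMIs in KO microglia and 1427 cells with 1989011 UMIs in wildtype microglia, with medians of 963.5 and 1065 UMIs per cell. No barcode was shared between the cells of the libraries. Levels are UMIs per 1e6 UMIs of the cells of a library (CPM), and 1 UMI was worth more CPM in KO microglia, where 3 UMIs stood for 7.87 CPM against 1.51 CPM in wildtype microglia. Park7 itself had 1 KO and 323 wildtype UMIs. All 10 microglia markers were present in both libraries, at 32376 CPM in KO microglia and 23800 CPM in wildtype microglia in sum. Of the 10, 4 were over 2-fold higher in KO microglia (13.5% of all genes), among them P2ry12 with a ratio of 9.46 (8.67 to 10.3). The 2 that went the other way were C1qa, with a ratio of 0.536 (0.503 to 0.571), and C1qb, with 0.722 (0.683 to 0.762). Ly6c2 of monocytes, Camp and Ltf of neutrophils and Trac of T lymphocytes were at 0 in both. Of the 5 monocyte markers, 3 had UMIs in each library, among them Ccr2 with 8 and 15 UMIs, and the list summed to 26.2 and 15.6 CPM. Of the 8 Ccr2 UMIs of KO microglia, 7 were in a single cell. Higher sums in KO microglia were found for astrocyte markers, with a ratio of 1.88 (1.499 to 2.35), and for endothelial markers, with 4.93 (2.99 to 8.10). Of the 34 endothelial UMIs of KO microglia, 12 were Flt1 UMIs of a single cell. The 6 border macrophage markers summed to a ratio of 1.51 (0.916 to 2.40), an interval that holds 1. Among them Mrc1 had a ratio of 5.96 (3.18 to 11.3), and F13a1 went the other way with 0 KO and 46 wildtype UMIs. The B lymphocyte list summed to 99.7 and 58.3 CPM, mostly from Ighm with 35 and 88 UMIs. Neutrophil genes summed to 0 UMIs in KO microglia and 128 UMIs in wildtype microglia, and the choroid plexus gene Ttr had 710 and 20 UMIs. A single KO cell held 646 of the 710 Ttr UMIs. Y-linked UMIs without an Xist UMI were present in 12 cells of KO microglia and 195 cells of wildtype microglia. The study describes 1 female and 1 male mouse per genotype, with the sex of cells read from Xist. Sensor levels within classes of cells by sex marker are given further on, and the part of the other differences in the results was not tested.

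Sequences around the transcription starts of 2 paired RNA sensors are shown first, because Ifih1 and Ddx58 both respond to viral RNA through MAVS and their ratio to each other differed between the libraries. They are RefSeq promoters of GRCm38.p6, and the labels name mm9 and mm10 (GRCm38) without saying which was used for these files. Of the 10 genes, 6 had an entry, which were Ifih1, Ddx58, Mb21d1, Aim2, Mavs and Tbk1. Each is read 5′ to 3′, and capitals mark matches on either strand to GAAANNGAAA, the core of the interferon-stimulated response element (ISRE), or to GAAANGAAA, the same with 1 base between the repeats, which was added after the sequences had been read.

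Ifih1 before the start (chr2:62646256-62646505, minus strand): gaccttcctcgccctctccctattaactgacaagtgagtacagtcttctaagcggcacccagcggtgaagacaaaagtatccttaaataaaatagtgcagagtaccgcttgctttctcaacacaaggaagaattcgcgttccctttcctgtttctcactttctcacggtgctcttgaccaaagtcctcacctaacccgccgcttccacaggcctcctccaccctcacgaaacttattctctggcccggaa

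Ifih1 after the start (chr2:62646206-62646235, minus strand): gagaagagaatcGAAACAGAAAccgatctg

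Ddx58 before the start (chr4:40239826-40240075, minus strand): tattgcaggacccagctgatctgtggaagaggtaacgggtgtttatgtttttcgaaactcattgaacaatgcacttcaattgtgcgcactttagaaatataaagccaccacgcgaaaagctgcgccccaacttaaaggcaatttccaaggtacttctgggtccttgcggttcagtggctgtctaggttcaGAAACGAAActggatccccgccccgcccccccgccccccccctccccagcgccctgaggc

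Ddx58 after the start (chr4:40239796-40239825, minus strand): agTTTCGATTTCctatggccagccggctag

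An ISRE core lay 33 to 42 bases after the start of Ifih1 and, on the opposite strand, 3 to 12 bases after the start of Ddx58. The form with 1 base between the repeats was present 60 to 52 bases before the start of Ddx58. No other sensor promoter held either form. In the 300-base windows of the table, from 250 bases before to 50 after the start, 3.44% of all 32851 promoters held the ISRE core and 3.17% the closer form. Neither TTCNNNGAA, the core of the gamma-activated site, nor a kappaB site was found in the 6 sensor promoters, against 8.30% and 26.6% of all promoters. Among antiviral effector genes, 8 of the 15 with an entry held the ISRE core. These matches are letters in a window and not measured sites.

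In the level of RNA sensors, the MDA5 gene Ifih1 differed most clearly. Ifih1 (chromosome 2, 62595618 to 62646255), which recognises long double-stranded RNA, was counted 17 times in 15 KO cells and 358 times in 252 wildtype cells. Its level was 44.6 CPM (26.0 to 71.4) and 180 CPM (162 to 200), a 4.04-fold lower level in KO microglia (2.49 to 7.01). Ddx58 (chromosome 4, 40203777 to 40239825) encodes RIG-I, which recognises RNA ends with a triphosphate. It had 35 KO and 202 wildtype UMIs, at 91.8 CPM (63.9 to 128) and 102 CPM (88.0 to 117). The ratio of KO microglia over wildtype microglia was 0.904 (0.612 to 1.30), so that no difference beyond counting error was present for Ddx58.

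Compared within each library, which needs no scaling, there were 48.6 Ifih1 UMIs per 100 Ddx58 UMIs in KO microglia and 177 in wildtype microglia. The odds ratio of these counts between the libraries was 3.64 (1.93 to 7.12). The balance of these 2 sensors thus differed between the libraries by more than counting error. Whether the ISRE cores after their starts have a part in it was not tested. Ifih1 and Dhx58 each overlap a long non-coding RNA gene, Gm39839 and Gm38483, and whether the counting used the strand is not given in the sources used here.

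Dhx58 (chromosome 11, 100694884 to 100704271) encodes LGP2, which lacks the signalling domains of RIG-I and MDA5 and tunes both. It had 2 KO and 70 wildtype UMIs, at 5.25 CPM (0.635 to 18.9) and 35.2 CPM (27.4 to 44.5). The ratio was 0.149 (0.0177 to 0.559), a wide interval that rests on the 2 UMIs. Mavs (chromosome 2, 131234063 to 131248025), the adaptor below RIG-I and MDA5, was the least abundant sensor of wildtype microglia. It had 5 KO and 49 wildtype UMIs, at 13.1 CPM (4.26 to 30.6) and 24.6 CPM (18.2 to 32.6), and at these counts no difference could be detected (ratio 0.532, 0.166 to 1.33).

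**Figure D1:**
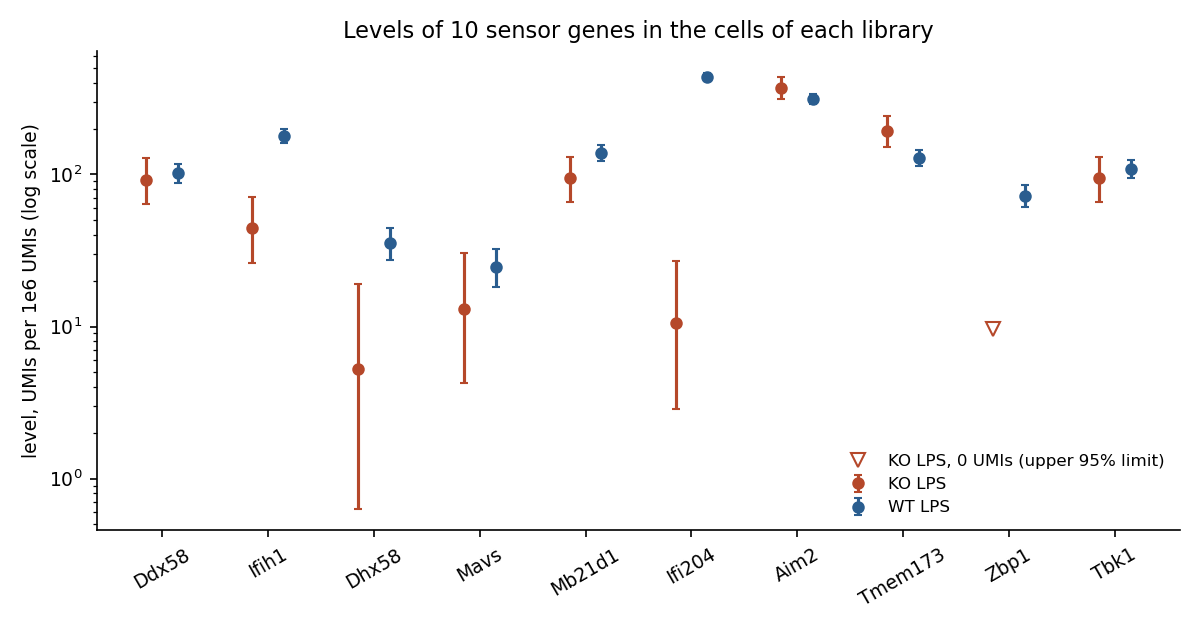
Levels of the 10 sensor genes in CPM (log axis) in the cells of KO LPS and WT LPS, with exact Poisson 95% intervals. The open triangle is the upper limit of Zbp1 in KO LPS, which had 0 UMIs, and Ifi204 shows the widest gap of the genes present in both, 10.5 against 437 CPM.

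Among DNA sensors, Ifi204 was nearly absent from KO microglia and the most abundant sensor in wildtype microglia. Ifi204 (chromosome 1, 173747293 to 173767069), a member of the interferon-inducible p200 family that binds DNA, was counted 4 times in 3 KO cells and 869 times in 518 wildtype cells. The level was 10.5 CPM (2.86 to 26.9) and 437 CPM (408 to 467), 41.6-fold lower in KO microglia (16.2 to 153). Reads of close relatives of Ifi204 may have been counted with it, and how such reads were assigned is not given in the sources used here. Of the relatives, Ifi203, Ifi205 and Mndal had 0 UMIs in KO microglia and 1, 16 and 7 UMIs in wildtype microglia, and Pyhin1 had 7 and 330 UMIs, 9.04-fold lower in KO microglia (4.34 to 22.7).

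Aim2, which binds double-stranded DNA with the same type of domain but assembles an inflammasome, did not share this difference. Aim2 (chromosome 1, 173349547 to 173466040) was counted 142 times in 96 KO cells and 623 times in 425 wildtype cells. The level was 372 CPM (314 to 439) and 313 CPM (289 to 339), with a ratio of 1.19 (0.984 to 1.43), and Aim2 overlaps the gene Cadm3 in the annotation. Per 100 Aim2 UMIs there were 2.82 Ifi204 UMIs in KO microglia and 139 in wildtype microglia, an odds ratio of 49.4 (18.7 to 185). For Pyhin1 against Aim2, it was 10.7 (4.99 to 27.5). The balance of Ifi204 and Aim2, both on chromosome 1, thus differed by more than counting error.

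Over all cells, the cGAS gene was lower and the STING gene higher in KO microglia. Mb21d1 (cGAS, chromosome 9, 78430518 to 78443237), the enzyme that makes cyclic GMP-AMP on binding DNA, had 36 KO and 276 wildtype UMIs. The level was 94.4 CPM (66.1 to 131) and 139 CPM (123 to 156), 1.47-fold lower in KO microglia (1.04 to 2.14). Tmem173 (STING, chromosome 18, 35733678 to 35740554), the receptor of that dinucleotide, was counted 74 times in 54 KO cells and 255 times in 213 wildtype cells.

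Its level of 194 CPM (152 to 244) in KO microglia lay above the 128 CPM (113 to 145) of wildtype microglia, a ratio of 1.51 (1.15 to 1.97). Tmem173 was the only one of the 10 sensors whose interval lay above a ratio of 1. There were 48.6 Mb21d1 UMIs per 100 Tmem173 UMIs in KO microglia and 108 in wildtype microglia, an odds ratio of 2.22 (1.42 to 3.54). For the adaptors, Mavs per 100 Tmem173 was 6.76 in KO microglia and 19.2 in wildtype microglia, with an odds ratio of 2.84 (1.08 to 9.46).

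Zbp1 had no UMI in KO microglia. Zbp1 (chromosome 2, 173206612 to 173218959) binds nucleic acids in the Z form and can start necroptosis through RIPK3. It had 0 UMIs among 320 cells of KO microglia, which allows a share of cells with a UMI of up to 0.938% by a floor of 3 counts and 1.15% by the exact upper limit, and 143 UMIs in 121 cells of wildtype microglia at 71.9 CPM (60.6 to 84.7). Against a floor of 3 counts in KO microglia, this was at least 9.14-fold lower, and the exact lower limit was 7.34-fold. Per 100 UMIs of Ripk1, a kinase that joins ZBP1, there were 0 Zbp1 UMIs in KO microglia and 69.8 in wildtype microglia.

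Tbk1 (chromosome 10, 121546455 to 121586794), the kinase on which MAVS and STING converge, was alike in level within counting error. It had 36 KO and 215 wildtype UMIs, at 94.4 CPM (66.1 to 131) and 108 CPM (94.1 to 124). The ratio was 0.873 (0.596 to 1.25), an interval that holds differences of up to 1.68-fold lower and 1.25-fold higher. Ikbke, its relative that is induced by inflammatory signals, had 3 and 73 UMIs, or 8.33 and 34.0 per 100 Tbk1 UMIs, an odds ratio of 4.06 (1.23 to 21.2).

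**Figure D2:**
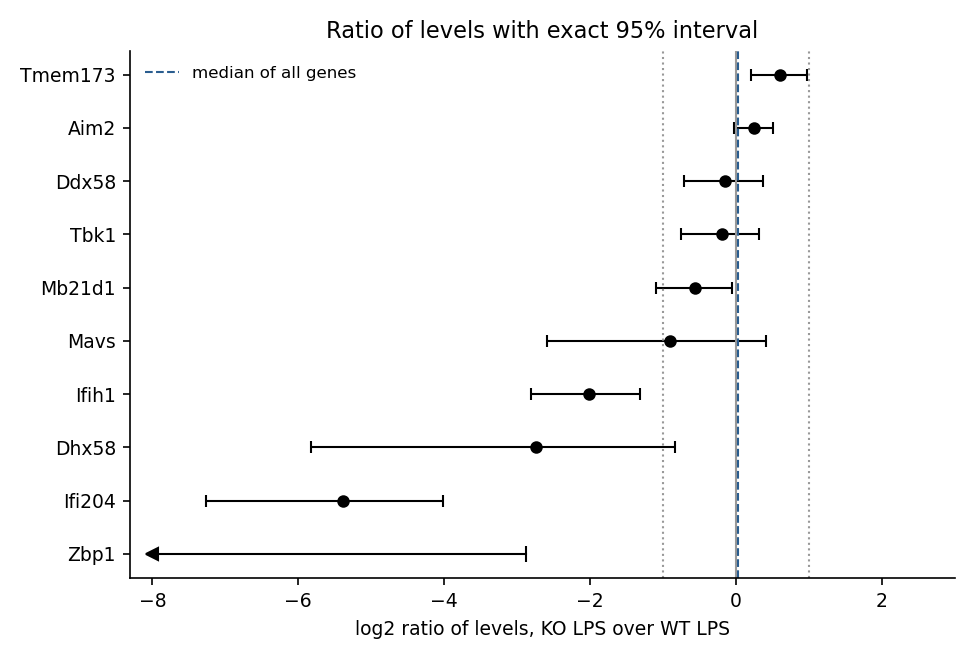
Log2 ratio of levels, KO LPS over WT LPS, for the 10 sensors with exact 95% intervals. Dotted lines mark 2-fold, the dashed line is the median of all genes (0.03), and the arrow of Zbp1 has no lower end because KO LPS had 0 UMIs. The intervals of Zbp1, Ifi204 and Ifih1 lie wholly beyond 2-fold.

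With a log2 ratio of -1 or lower (prior count 0.5) as over 2-fold lower, 4 of the 10 sensors were over 2-fold lower in KO microglia, which were Zbp1, Ifi204, Dhx58 and Ifih1. Of the 9085 genes that reached 20 UMIs in all, 15.3% were over 2-fold lower. None of the 10 was over 2-fold higher, against 13.5% of all genes. Without a threshold, 8 sensors lay below a log2 ratio of 0 and 2 above it, and the median of the 10 was -0.66 beside 0.03 for all genes. The median was the same with Zbp1 at its bound.

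Summed over the 10 genes, KO microglia had 351 UMIs at 921 CPM (827 to 1022) and wildtype microglia had 3060 UMIs at 1538 CPM (1484 to 1594). The sum was 1.67-fold lower in KO microglia (1.496 to 1.87). Much of that difference was Ifi204, and without it the sums were 910 CPM (817 to 1011) and 1102 CPM (1056 to 1149), 1.21-fold lower in KO microglia (1.08 to 1.36). The composition of the sensor RNA also differed.

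In KO microglia, Aim2 made up 40.5% of the sensor UMIs (35.3 to 45.8) and Tmem173 21.1% (16.9 to 25.7). In wildtype microglia, Ifi204 came first with 28.4% (26.8 to 30.03), before Aim2 with 20.4% (18.9 to 21.8) and Ifih1 with 11.7% (10.6 to 12.9). UMIs count molecules at their 3′ end, so that these levels need no division by length, although genes may differ in capture. In the order of wildtype microglia (Ifi204, Aim2, Ifih1, Mb21d1, Tmem173, Tbk1, Ddx58, Zbp1, Dhx58, Mavs), the intervals overlapped between neighbours from Mb21d1 to Ddx58 and between Dhx58 and Mavs. In the order of KO microglia, Aim2 and then Tmem173 stood apart from the rest, Mb21d1, Tbk1 and Ddx58 overlapped at 91.8 to 94.4 CPM, and from there down each gene overlapped with the next.

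The share of cells with a UMI was compared at 500 UMIs per cell, as the expected number of cells over all draws of 500 UMIs, with no cell left out. At least 1 sensor UMI was present in 35% of KO microglia (29.8 to 40.5) and 50.9% of wildtype microglia (48.3 to 53.6), and in 58.4% and 75.6% before thinning. Free RNA adds UMIs to any droplet, and droplets of 500 UMIs filled only from ambient barcodes (100 UMIs or fewer) would reach 28.6% and 53.3%. Whether ambient barcodes also hold cells of low depth was not tested. The share in KO microglia lay above this background and that of wildtype microglia at it. A share at the background was not read as expression in single cells.

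Sensors differed in how far they stood above ambient RNA. In wildtype microglia, Tmem173 was present in 6.03% of cells (4.85 to 7.39) with a background of 2.66%, Dhx58 in 1.68% (1.08 to 2.49) with 0.158%, and Mavs in 1.40% (0.858 to 2.16) with 0.316%. Their levels in cells were 2.38 (1.46 to 4.15), 11.1 (1.93 to 445) and 3.89 (1.02 to 33.0) times those in ambient barcodes. For Ifi204, 18.2% of wildtype microglia (16.2 to 20.2) had a UMI and the background was 18.4%. For Ifih1, the share was 7.78% (6.44 to 9.29) with a background of 11.1%, and for Ddx58 it was 4.98% (3.91 to 6.23) with 7.17%.

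The level of Ddx58 in cells of wildtype microglia was 0.682 times that in ambient barcodes (0.495 to 0.958), which is below it. For Ifih1 it was 0.768 times (0.596 to 1.0003), an interval that holds 1. Zbp1, with 3.15% of cells and a background of 3.88%, Mb21d1, with 6.45% and 7.76%, Tbk1, with 5.26% and 5.39%, and Aim2, with 13.9% and 14.6%, had backgrounds near their shares. In KO microglia, Tmem173 was present in 8.12% of cells (5.38 to 11.7) with a background of 4.19%, and Aim2 in 15.3% (11.5 to 19.7) with 11.2%. The levels in cells were 2.27 (1.33 to 4.10) and 1.57 (1.12 to 2.24) times those in ambient barcodes. Tmem173 was thus above the ambient barcodes in both libraries.

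The ambient barcodes also differed between the libraries. They held 0 Ifi204 UMIs of 198723 in KO microglia and 128 of 315748 in wildtype microglia, and 1 and 25 Zbp1 UMIs. The lower counts of Ifi204 and Zbp1 in KO microglia were therefore found in these barcodes as well as in cells. Of the remaining KO microglia shares, Mb21d1 stood at 5.31% with a background of 5.15%, Ddx58 at 4.06% with 3.22%, Tbk1 at 4.06% with 4.91%, Ifih1 at 2.19% with 3.22% and Dhx58 at 0.312% with 0.502%. Ifi204 and Mavs each stood at 0.625% with no ambient UMI.

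**Figure D3:**
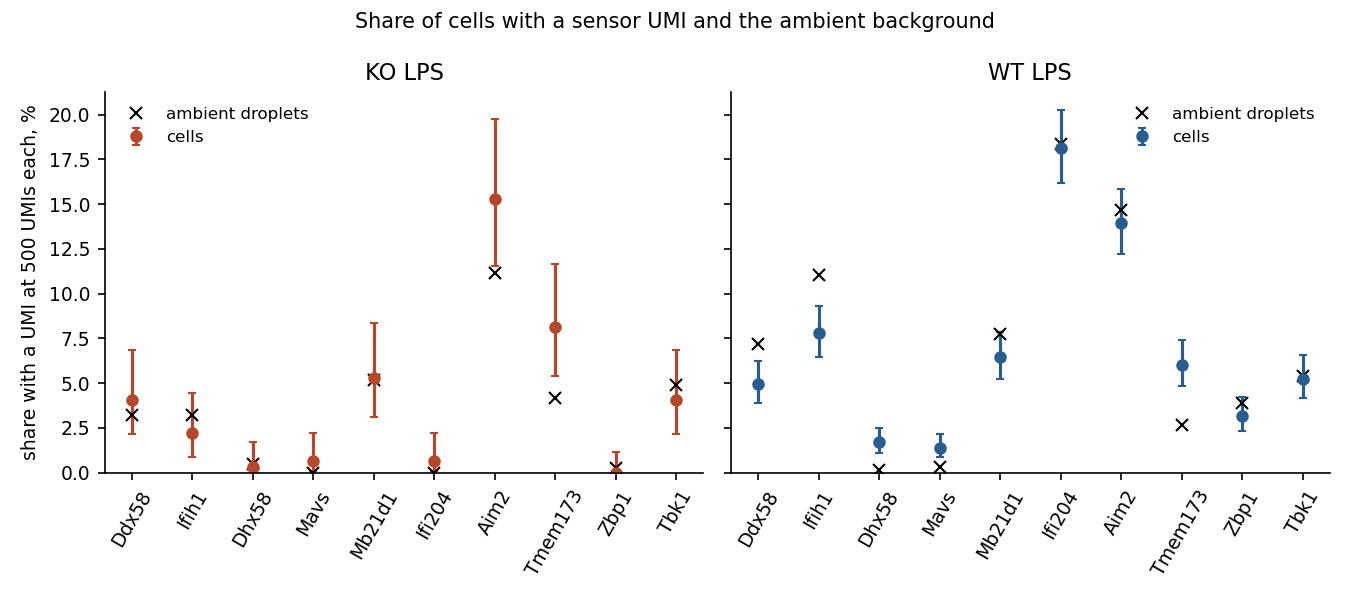
Share of cells with a UMI of each sensor at 500 UMIs per cell, with Clopper-Pearson 95% intervals, and the share that droplets of ambient RNA would reach (crosses). In WT LPS, Tmem173, Dhx58 and Mavs lie above their crosses, and Ifih1 and Ddx58 below. The crosses are drawn without their own counting error, and with it Ifih1 did not differ from the ambient barcodes.

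Cells with several different sensors were few. In 1 draw of 500 UMIs per cell, 27.5% of KO microglia had 1 sensor and 5.94% had 2, and none of the 320 cells had 3 or more. In wildtype microglia, 37.4% had 1, 12.96% had 2, 1.96% had 3 and 0.350% had 4, and a single cell had 5 or more. By the rule for likeness, 2 of 2039 genes had a Pearson correlation over 0.1 with the summed sensor UMIs across the 1427 wildtype microglia, Slfn8 with 0.107 and Upf2 with 0.1004, where the median gene had 0.001. These cells share 1 library, and correlations this weak in sparse counts carry no finding.

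Cells of wildtype microglia were also divided by their UMIs of the antiviral effectors, a list of 20 interferon-induced genes such as Ifit3 and Isg15. After thinning, 51.7% of wildtype microglia (49.1 to 54.3) had an effector UMI, and the ambient background was 44.3%. Free RNA may thus have set the class of many of these cells, and its part was not tested. Ifi204 was present in 14.5% of the 684 cells without an effector UMI (11.9 to 17.3), in 16.4% of the 445 cells with 1 (13.1 to 20.2) and in 30.2% of the 298 cells with 2 or more (25.0 to 35.8). Its level in the last class was 2.14 times that in the first (1.63 to 2.80). The other 9 sensors together were present in 42.1%, 42.7% and 41.9% of these cells, and their level ratio was 1.01 (0.842 to 1.21). The ambient background of Ifi204 was 18.4%, above the shares of the lower 2 classes and below that of the highest.

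Taken singly, Ifih1 had a ratio of 1.46 (0.928 to 2.27) and Zbp1 of 1.42 (0.654 to 2.97) between the same classes, and the intervals of all 9 held 1. Median depths before thinning were 1048.5, 1073 and 1082.5 UMIs in the 3 classes. The Scrublet caller marked 3 of the 1427 cells as doublets, too few to show that doublets were found, and their part in the highest class was not tested. In KO microglia, 9 cells had 2 or more effector UMIs, of which 3 had any sensor UMI, and the ratio for the 10 sensors was 1.02 (0.273 to 2.67). After thinning, 16.9% of KO microglia (12.9 to 21.4) had an effector UMI, and the ambient background was 19.3%.

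**Figure D4:**
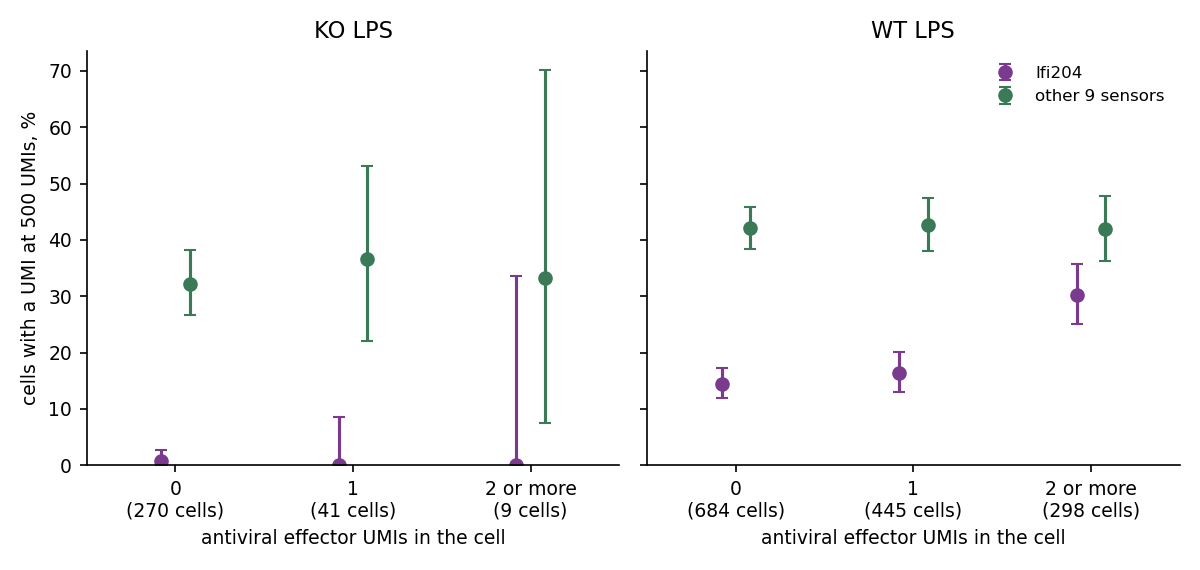
Share of cells with an Ifi204 UMI and with a UMI of the other 9 sensors, among cells with 0, 1 and 2 or more antiviral effector UMIs, at 500 UMIs per cell with Clopper-Pearson 95% intervals. In WT LPS, Ifi204 goes from 14.5% to 30.2% while the other sensors stay between 41.9% and 42.7%.

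The sensors were compared within cells of 1 sex marker, because the libraries differed in Xist. After thinning, an Xist UMI was present in 50.3% of KO microglia with an ambient background of 60.9%. In wildtype microglia it was present in 28.3% with 40.8%. For Y-linked UMIs the shares were 4.06% with 5.39% in KO microglia and 8.90% with 9.64% in wildtype microglia. No marker share lay above its background, so that the classes were not read as the sex of single cells. Among cells with an Xist UMI and no Y-linked UMI (200 in KO microglia and 565 in wildtype microglia), Ifi204 stood at 7.67 and 473 CPM and was 61.6-fold lower in KO microglia (16.9 to 511). Ifih1 was 3.59-fold lower (2.07 to 6.71), Mb21d1 1.88-fold lower (1.15 to 3.24), and Zbp1 had 0 and 74 UMIs. Tmem173 stood at 230 and 117 CPM, a ratio of 1.96 (1.40 to 2.74). Within wildtype microglia, the level in Xist cells over that in Y-linked cells was 1.00 (0.902 to 1.11) for the 10 sensors, and for each single sensor the interval held 1.

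The 12 KO microglia that had a Y-linked but not an Xist UMI held 14445 UMIs and 19 sensor UMIs. They had 0 UMIs of Zbp1, Dhx58, Ifi204 and Mavs, where the 195 cells of wildtype microglia had 20, 8, 135 and 6, and of these genes Ifi204 alone differed beyond counting error (upper limit of the ratio 0.590). In the cells with neither marker, 99 in KO microglia and 587 in wildtype microglia, Tmem173 stood at 105 and 146 CPM with a ratio of 0.719 (0.334 to 1.38), and in the Y-linked cells the ratio was 1.82 (0.359 to 5.79). Among these 3 classes the interval of Tmem173 lay above 1 in the Xist cells alone. Cells with both markers, 9 in KO microglia and 80 in wildtype microglia, were not compared. Those of wildtype microglia had a median of 2199 UMIs, against 1065 over all its cells. Mb21d1 stood at 168 and 127 CPM in the cells with neither marker, a ratio of 1.32 (0.721 to 2.28), on the other side of 1 from its ratio over all cells.

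The genes around the sensors were described from 9 lists. Of their 94 genes that reached 20 UMIs in all, 36 were over 2-fold lower in KO microglia and 2 over 2-fold higher, or 33 and 2 when genes without a UMI in KO microglia were placed at their bound. Of the 36, 18 were antiviral effectors. Over all genes, 15.3% were over 2-fold lower and 13.5% over 2-fold higher, with a median log2 ratio of 0.03, and the counts of each list stand beside these shares. Of the 11 other RNA recognition genes, 3 were over 2-fold lower and none higher (15.3% and 13.5% of all genes), with a median log2 ratio of -0.47. Eif2ak2, which encodes the RNA-activated kinase PKR, was 2.98-fold lower in KO microglia (2.15 to 4.23). Of the DNA recognition and turnover list, 2 of 15 genes were over 2-fold lower, a share below the 15.3% of all genes, and none higher, with a median of -0.30, from Pyhin1 to Prkdc (ratio 1.56, 0.933 to 2.51).

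Downstream of the sensors, 5 of 16 kinases, adaptors and transcription factors were over 2-fold lower and 1 over 2-fold higher (15.3% and 13.5% of all genes), with a median log2 ratio of -0.08. Irf7, the interferon-induced transcription factor of the pathway, had 1 KO and 79 wildtype UMIs, a ratio of 0.0660 (0.00165 to 0.379). Irf3, the factor that TBK1 phosphorylates, had 26 and 150 UMIs with a ratio of 0.904 (0.572 to 1.38), and was named here after its values were seen. Traf2, a signalling adaptor, had a ratio of 2.61 (1.14 to 5.61).

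Of the genes of interferon signalling, 2 of 7 were over 2-fold lower, beside 15.3% of all genes. Stat2 was 5.34-fold lower in KO microglia (2.67 to 12.5), and Irf9, its partner in the complex that binds the ISRE, was 1.77-fold lower (1.23 to 2.61). The receptor chains Ifnar1 and Ifnar2 had ratios of 0.724 (0.518 to 0.992) and 0.927 (0.722 to 1.18). Of the receptor kinases, Jak1 was higher, with a ratio of 1.58 (1.30 to 1.90), and Tyk2 had a ratio of 1.88 (0.917 to 3.64), an interval that holds 1.

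Of 6 genes of the AIM2 inflammasome, 1 was over 2-fold lower (Il1b) and none higher, beside 15.3% and 13.5% of all genes. The adaptor Pycard was 1.69-fold lower in KO microglia (1.37 to 2.09), Casp1 1.61-fold (1.20 to 2.20) and the pore gene Gsdmd 1.498-fold (1.03 to 2.24), all 3 by less than 2-fold, and Casp4 had a ratio of 0.693 (0.418 to 1.10). Of the cytokines that this inflammasome matures, Il1b had 1 and 322 UMIs and was 61.7-fold lower (11.001 to 2446), and Il18 had a ratio of 1.36 (0.952 to 1.90). Neutrophil genes, at 0 and 64.4 CPM, went the same way as Il1b, and their part in it was not tested. Of 5 death partners of ZBP1, 2 were over 2-fold lower by the fitted ratio and 1 at the bound, beside 15.3% of all genes. Mlkl, the executor of necroptosis, was at 0 UMIs against 22, at least 1.41-fold lower by the floor of 3 counts and 1.05-fold by the exact limit. Casp8, which restrains it, had a ratio of 1.42 (1.05 to 1.88).

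Of 11 inhibitors of the pathway, 3 were over 2-fold lower and 1 over 2-fold higher, beside 15.3% and 13.5% of all genes. Usp18, which blocks interferon receptor signalling, was at 0 UMIs against 65 (at least 4.15-fold lower by the floor and 3.28-fold by the exact limit). The ubiquitin ligase Smurf1 had a ratio of 3.16 (1.72 to 5.68). None of the 4 endosomal sensor genes with enough UMIs passed 2-fold in either direction, from Tlr13 (ratio 0.501, 0.325 to 0.745) to Tlr3 (1.35, 0.967 to 1.86), with a median of 0.02. The antiviral effectors were the list with the lowest median. Of these, 18 of 19 were over 2-fold lower, or 16 at the bound, beside 15.3% of all genes, and the median log2 ratio was -2.67, or -2.12 at the bound. Ifit3 was at 0 UMIs against 83, at least 5.30-fold lower by the floor and 4.22-fold by the exact limit. The ubiquitin ligase gene Herc6 had a ratio of 1.08 (0.761 to 1.51).

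**Figure D5:**
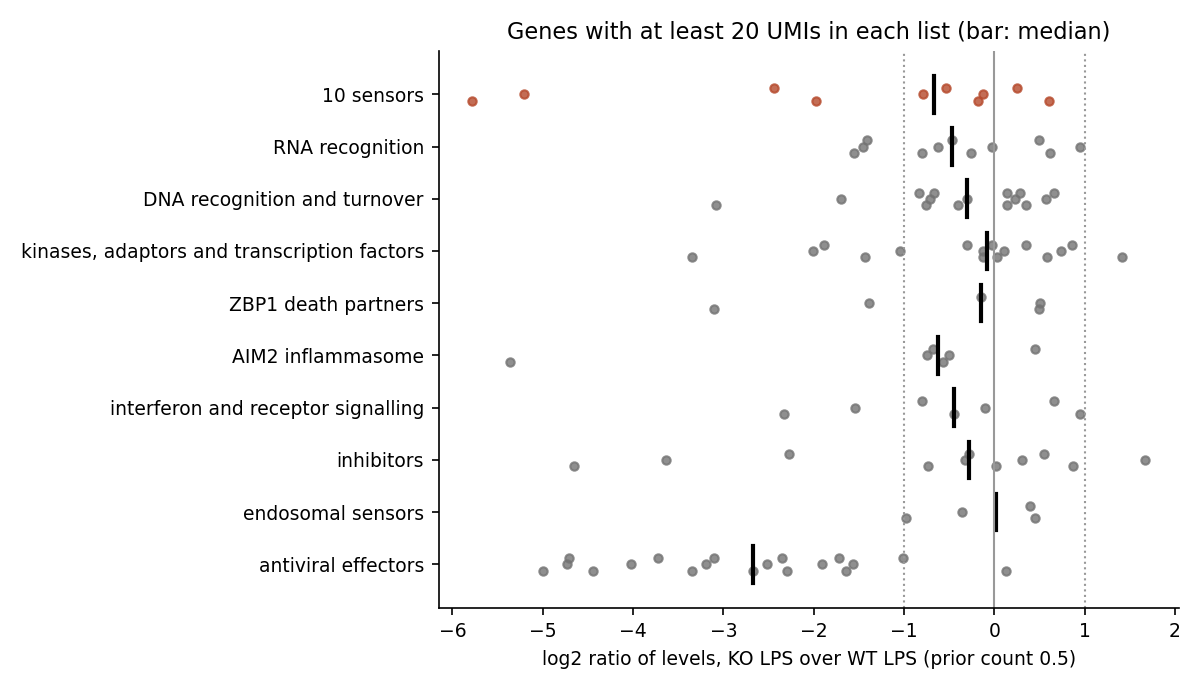
Log2 ratio of levels, KO LPS over WT LPS (prior count 0.5), for each gene with at least 20 UMIs in the 10 sensors and in 9 pathway lists, with the median of each as a bar and dotted lines at 2-fold. The sensors spread from -5.78 (Zbp1) to 0.61 (Tmem173), and their median of -0.66 lies between those of the antiviral effectors (-2.67) and the endosomal sensors (0.02).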

How the data were processed

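Single microglial transcriptomes were measured in 1 Drop-seq library per genotype, named by the labels. The authors deposited raw UMI counts without normalisation, for 9999 barcodes per library, with 684738 UMIs in the KO and 3063795 UMIs in the wildtype matrix. Entries marked NA, which covered 5616 and 3036 genes, were read as 0. The submitters' processing notes name STAR, without a version, and bcl2fastq 2.0. The counting program and annotation are not given in the sources used here.

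The members and gene lists were chosen with earlier results of these data known. Barcodes with at least 500 UMIs and 100 genes were kept as cells, which hold 55.7% and 64.9% of the UMIs, whereas the study used DropletUtils before its own filter on genes. Doublets were left in. UMIs were summed per library. Exact Poisson (levels), conditional binomial (ratios) and Clopper-Pearson (shares) intervals of 95% cover counting error only, and no p-value was computed because cells of 1 library are not replicates. Log2 ratios used a prior count of 0.5, and lists were described over genes that reached 20 UMIs in all. Shares were the mean over all draws of 500 UMIs, rounded to whole cells. The ambient background came from all barcodes of 100 UMIs or less (198723 and 315748 UMIs). Genes were named as the 10 sensors, Park7, the highest and lowest of each pathway list, the interferon and AIM2 lists and up to 5 genes with a correlation over 0.1. Others were named after their values were seen. Some genes that this rule names are not reported here. Older symbols, positions and promoters came from RefSeq (GRCm38.p6), and Trex1, Ifnb1, Ifna4 and Rnf125 were not analysed here. Alternatives changed the cell filter, doublets, sex marker class, scaling, ambient RNA, prior count, low-count filter, thinning and the use of Ifi204. Python 3.11.15 was used with numpy 2.4.6, with scipy 1.17.1, with pandas 2.3.3 and with scanpy 1.11.5 for Scrublet. Calculations were tested on simulated data.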

Additional observations from a re-analysis of the deposited data

Results flagged for a closer look

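Sensor levels were also taken in all barcodes that were not counted as cells, of which the ambient barcodes are a part. They numbered 9679 for KO microglia (303433 UMIs) and 8572 for wildtype microglia (1074784 UMIs). Of the 10 sensors, Tmem173 alone had an interval above the wildtype level there. It had 39 KO UMIs at 129 CPM (91.4 to 176) and 62 wildtype UMIs at 57.7 CPM (44.2 to 74.0), a ratio of 2.23 (1.45 to 3.38). In the cells the same ratio was 1.51 (1.15 to 1.97). Whether these barcodes hold cells of low depth or free RNA was not tested.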

How the results depend on the processing

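Restriction to cells with a Y-linked but without an Xist UMI moved most results, and KO microglia held 12 such cells. In them the ratio of the summed sensor level went from 0.598 to 0.836, 1 of 8 sensors that reached 20 UMIs (Ifi204) in place of 4 of 10 was over 2-fold lower, beside 28.1% of all genes there, the difference in the share of cells with a sensor UMI turned from -15.9 to 0.769 percentage points (50% and 49.2%), and the log2 ratio of Dhx58 turned from -2.43 to 0.32 on 0 and 8 UMIs. The fitted value of a gene at 0 UMIs rests on the prior count and on these few cells. Leaving Ifi204 out, an alternative chosen after the data had been seen, brought the summed ratio to 0.826. Over the other alternatives the summed ratio lay between 0.577 and 0.637. The median log2 ratio of the sensors lay between -0.90 and -0.41 over all 13 of its alternatives, and apart from the Y-linked cells the count over 2-fold lower was 4 or, with the mean of single-cell CPM, 5. Of the 110 values of single sensors, 100 stayed within their counting interval and 10 left it, among them Dhx58 above. Of the sensors whose interval held 1, signs also varied: Mavs and Tbk1 reached 0.71 and 1.68 on the log2 scale in the Y-linked cells, and Ddx58 and Tbk1 each lay below 0 in 8 of 11 alternatives (Ddx58 from -0.61 to 0.25). Scrublet marked 36 of 320 cells in KO microglia (11.2%) and 3 of 1427 in wildtype microglia (0.210%) as doublets. With 1 library per genotype there was no replicate to leave out, no paired analysis was possible because each genotype has a single library, and depth limited Dhx58, Ifi204, Mavs and Zbp1, which had 5 UMIs or fewer in KO microglia.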

Other observations

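In the barcodes outside the cells, some sensors differed between the libraries by about as much as in the cells, and others did not. Ifi204 had 1 KO and 456 wildtype UMIs there, at 3.30 CPM (0.0834 to 18.4) and 424 CPM (386 to 465). Zbp1 had 1 and 56 UMIs, a ratio of 0.0633 (0.00157 to 0.367), and Ifih1 had 19 and 258 UMIs, 3.83-fold lower in KO microglia (2.41 to 6.47). Ddx58, alike in the cells, had 21 and 142 UMIs there, 1.91-fold lower in KO microglia (1.20 to 3.18). Aim2 had a ratio of 0.830 (0.644 to 1.06) and Tbk1 of 1.15 (0.755 to 1.70). The 10 sensors summed to 758 CPM (663 to 863) and 1492 CPM (1420 to 1567).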
